A study of Mus musculus with 60 samples.

Results

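Cell cycle and DNA replication genes were followed in cultured mouse hepatocytes with and without Met, the receptor of hepatocyte growth factor (HGF). The set holds 45 genes chosen by symbol: 13 regulators of the G1 phase, 17 genes of DNA replication and 15 genes of mitosis. A probe annotated to a single symbol was found for 43 of them, among 14442 genes with such a probe. Ccnb1 and Cdt1 had none. Where a gene had several probes, which was so for Ccnd2, the probe with the most values was taken.

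Cells in the G1 phase commit to division when D-type cyclins, bound to Cdk4 or Cdk6, and cyclin E, bound to Cdk2, inactivate the retinoblastoma protein and release E2F transcription factors. E2F factors switch on genes of the replication machinery, among them the Mcm helicase, and genes of mitosis follow later under other regulators that act through CHR elements. Adult hepatocytes are mostly quiescent, re-enter the cycle after loss of liver tissue, and respond to HGF as a mitogen in culture.

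The cells were primary hepatocytes from livers of male adult mice aged 9 to 10 weeks. The group called KO carried Alb-Cre +/- with Met Fl/Fl, on the strain 129SV/C57BL6, and the group called WT was the Cre control, strain C57BL, so that strain and genotype changed together. Alb-Cre acts in hepatocytes, and whether other cells of the cultures kept Met was not measured here. The promoter of Cre in the WT control was not given in the sources used here, and 6 WT arrays were labelled heterozygous for Cre recombinase. Cells were plated with serum, kept serum-free overnight, and then left untreated (0 h) or given 50 ng/ml of recombinant human HGF, with collection after 0.5 h, 2 h, 12 h or 24 h. This gave 10 groups of 3 replicates, described as cultures from individual mice, each read on 2 arrays with exchanged dyes against pooled RNA of wild-type hepatocytes. Untreated cultures of the later times were not analysed here, so hours of HGF and hours in culture changed together.

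Values are log2 ratios of a sample to the reference, taken as the mean of the dye-swapped pair after each array was set to a median of 0. They are not levels, so 1 probe was never set against another. A probe entered the tests when each of the 10 groups had 2 or more replicates measured in both dye orientations. That left 14580 of 21997 probes, for 10074 genes, and 27 members: 7 of 13 G1 regulators, 12 of 16 replication genes and 8 of 14 mitosis genes. Differences are given with the standard error (SE) of the limma fit, and a call means p under 0.05 after Benjamini-Hochberg adjustment over all tested probes. The tests are two-sided. Where no n is given beside a difference, each group compared had 3 replicates.

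The arrays held values for 17356 to 21511 probes, and the number of replicates limits the precision. In 23 of 30 dye pairs the arrays correlated negatively over all probes (r from -0.68 to 0.19), so the differences of members that were called are also given on Cy5 and Cy3 arrays alone. The Cy5 array of WT 0 h replicate 3 stood in all 19 pairs of Cy5 arrays with r under -0.3, and its direction is unsettled. KO 24 h replicate 2 lay farthest of the 30 replicates from its group mean, with a root mean square deviation of 0.44 over the tested probes. These replicates, WT 0 h 3 and KO 24 h 2, are named the doubted replicates from here on. The numerator of the ratios was not stated. Of probes that differed by more than 1.5 between KO and WT at 24 h on both dyes, 53 had the same sign and 11 the opposite. Over all probes, the same comparison on Cy5 and on Cy3 arrays correlated with r from -0.53 to 0.37, depending on the comparison. The direction is therefore not settled, and ratios were read as sample over reference. Array numbers fell into 4 sets, with all 0.5 h replicates in set D and all 12 h replicates in set C. WT 24 h replicate 2 had its Cy5 array in set C and its Cy3 array in set B. Fits within array set C included this replicate, so for WT at 24 h they were not confined to that set. All WT 2 h replicates were also in set D, and no untreated array was. Array set and HGF therefore changed together between untreated and 0.5 h, and between untreated and 2 h in WT. The Met probe lay between -0.55 and 0.57 in WT and between -0.05 and 0.44 in KO, with a KO minus WT difference of 0.30 ± 0.19 (adjusted p = 0.41) at 24 h. Where this probe lies with respect to the deleted part was not given in the sources used here, so it does not check the labels.

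**Figure D1:**
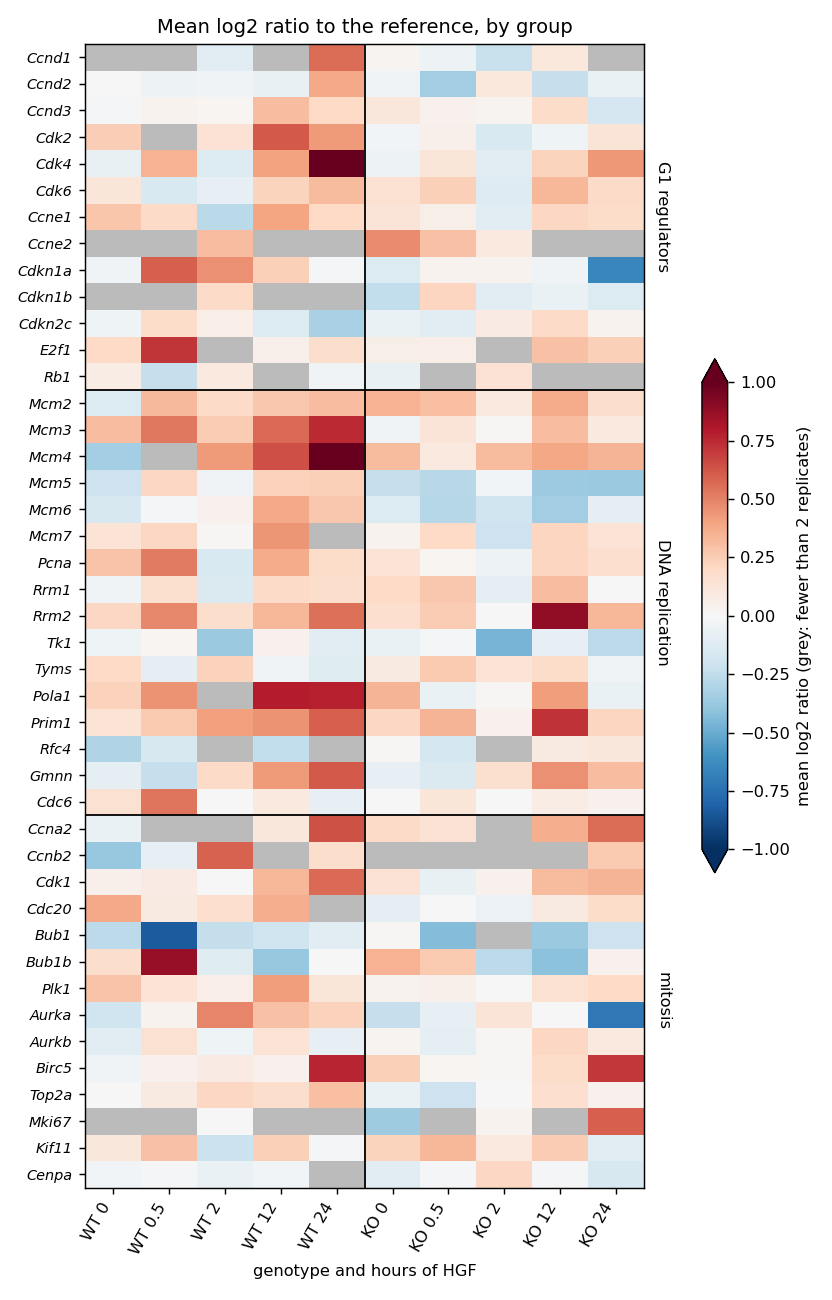
Mean log2 ratio to the reference of 43 cell cycle genes (rows, by role) in the 10 groups (columns, genotype and hours of HGF), with the colour scale ending at -1 and 1 and groups with fewer than 2 replicates in grey. Cdk4 and Mcm4 reached the top of the scale at 24 h in WT, with means of 1.31 and 1.11, against 0.44 and 0.34 in KO at that time.

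Over all groups, the means of the 43 genes were small against the reference. The highest group mean was that of Cdk4, 1.31 in WT at 24 h, followed by Mcm4 in the same group with 1.11 and Rrm2, a subunit of ribonucleotide reductase, with 0.88 ± 1.10 (SD, n = 2) in KO at 12 h. The lowest were those of Bub1, a kinase of the spindle checkpoint, with -0.83 in WT at 0.5 h, of Aurka, a mitotic kinase, with -0.71 and of the inhibitor Cdkn1a with -0.65, both in KO at 24 h. The lowest value of the last pair came from KO 24 h replicate 2, at -2.61 for Aurka and -1.69 for Cdkn1a, while the other replicates there lay at 0.53 and -0.06 and at -0.07 and -0.20. The map of group means shows these extremes.

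Among the G1 regulators, Cdk4 rose in WT hepatocytes after 24 h of HGF and was lower in KO than in WT at that time. Cdkn1a, which encodes the inhibitor p21, was lower in KO when averaged over the times. No other tested G1 gene was called in any comparison.

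Cdk4 encodes the kinase that partners D-type cyclins. Cdk4 in WT had log2 ratios of 0.15, 0.11 and -0.47 untreated, 0.34, 0.30 and 0.40 at 0.5 h, -0.29, -0.09 and -0.04 at 2 h, 0.30, 0.34 and 0.57 at 12 h, and 1.12, 2.24 and 0.56 at 24 h. Cdk4 in KO had log2 ratios of 0.05 and -0.14 untreated, 0.17, -0.06 and 0.26 at 0.5 h, -0.12, -0.06 and -0.13 at 2 h, 0.04, 0.30 and 0.32 at 12 h, and 0.61, 0.42 and 0.28 at 24 h, with 1 missing untreated. The 24 h values of WT all lay above its untreated values, and in KO the 3 values at 24 h also lay above both measured untreated ones. WT and KO overlapped at 24 h, since the highest KO value exceeded the lowest WT value. The WT mean went from -0.07 ± 0.35 (SD, n = 3) untreated to 1.31 ± 0.85 (SD, n = 3) at 24 h, a rise of 1.38 ± 0.25 (adjusted p = 0.00068), or 2.60-fold. At 24 h, 8.72% of all tested probes were called in WT. The rise was 1.27 on Cy5 and 1.49 on Cy3 arrays, 1.18 without the doubted replicates and 1.55 within array set C. The last value includes WT 24 h replicate 2, whose Cy3 array was in set B. Without WT 24 h replicate 2, the highest of the group, it was 0.91 and was still called. It was not called when only the groups compared were fitted (1.38, adjusted p = 0.22). With all Cy3 arrays turned the difference was -0.11 (adjusted p = 0.84). In KO the difference was 0.48 ± 0.28 (adjusted p = 0.43, n = 3 and 2). The difference between both responses, -0.90 ± 0.37 (adjusted p = 0.33, n = 2 or 3 a group), did not pass the test.

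At 24 h, Cdk4 was lower in KO than in WT by -0.87 ± 0.25 (adjusted p = 0.042), where 4.77% of all tested probes were called. The call rested on few values: without WT 24 h replicate 2 the difference was -0.41 (adjusted p = 0.23), without the doubted replicates it was -0.86 (adjusted p = 0.066), and within array set C it was -1.17 (adjusted p = 0.061). It was also lost without WT 24 h replicate 1, KO 24 h replicate 2 or 3, WT 0.5 h replicate 1, 2 or 3, WT 2 h replicate 2 or 3, WT 12 h replicate 1 or 2, KO 0.5 h replicate 1 or KO 2 h replicate 1, 2 or 3, with values from -1.25 to -0.41 over all 30 omissions of 1 replicate. The Cy5 arrays gave -0.54 and the Cy3 arrays -1.21.

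Cdkn1a restrains cyclin-dependent kinases. Cdkn1a in WT had log2 ratios of 0.15, -0.01 and -0.25 untreated, 0.47, 0.60 and 0.73 at 0.5 h, 0.25, 0.76 and 0.36 at 2 h, 0.21, 0.16 and 0.35 at 12 h, and 0.13, 0.20 and -0.36 at 24 h. Cdkn1a in KO had log2 ratios of -0.18, -0.21 and -0.01 untreated, 0.09, -0.10 and 0.11 at 0.5 h, -0.12, 0.13 and 0.10 at 2 h, 0.02, -0.25 and 0.11 at 12 h, and -0.07, -1.69 and -0.20 at 24 h. All 3 WT values exceeded all 3 KO values at 0.5, 2 and 12 h, and the groups overlapped at 0 and 24 h. The KO minus WT difference was below 0 at each of the 5 times, from -0.64 ± 0.26 at 24 h to -0.10 ± 0.26 untreated, and no single time passed the test. The 24 h value came from KO 24 h replicate 2: without it the difference at 24 h was -0.12 ± 0.17 (adjusted p = 0.78), and that at 0.5 h, -0.56 ± 0.15, was then called (adjusted p = 0.032). Averaged over the times it was -0.40 ± 0.11 (adjusted p = 0.025, n = 15 in KO and 15 in WT). Of all tested probes, 10.2% were called in this average. It was -0.32 (adjusted p = 0.0024) without the doubted replicates and missed the threshold without WT 2 h replicate 2 (-0.37, adjusted p = 0.051). The average was -0.19 (adjusted p = 0.59) on Cy5 and -0.61 (adjusted p = 0.20) on Cy3 arrays, and was called on neither alone. In WT, Cdkn1a differed from untreated by 0.63 ± 0.26 (adjusted p = 0.27) at 0.5 h and by 0.02 ± 0.26 (adjusted p = 0.97) at 24 h. Array set also changed between untreated and 0.5 h.

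Ccnd1, which encodes cyclin D1, had values for 18 of 30 replicates and was not tested. Ccnd1 in WT had log2 ratios of 0.04 untreated, 0.06, -0.28 and -0.10 at 2 h, and 0.83 and 0.29 at 24 h, with 2 missing untreated, 3 missing at 0.5 h, 3 missing at 12 h and 1 missing at 24 h. Ccnd1 in KO had log2 ratios of 0.24, -0.16 and 0.00 untreated, -0.31 and 0.21 at 0.5 h, -0.01, -0.28 and -0.37 at 2 h, 0.12, 0.40 and -0.20 at 12 h, and 0.01 at 24 h, with 1 missing at 0.5 h and 2 missing at 24 h. Both WT values at 24 h lay above the 4 other WT values, and above the only KO value at 24 h. The other D-type cyclins were tested: Ccnd2 differed from untreated by 0.38 ± 0.16 (adjusted p = 0.15) in WT and by -0.03 ± 0.16 (adjusted p = 0.97) in KO at 24 h, and Ccnd3 by 0.21 ± 0.16 (adjusted p = 0.5, n = 3 and 2) and -0.28 ± 0.14 (adjusted p = 0.36). Cdk6, the other partner of the D-type cyclins, had group means from -0.16 to 0.33, and Ccne1, cyclin E1, from -0.27 to 0.40. Cdkn2c, an inhibitor of Cdk4 and Cdk6, had its lowest mean, -0.33, in WT at 24 h and differed there from KO by 0.37 ± 0.14 (adjusted p = 0.15).

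Cdk2, Ccne2, Cdkn1b, E2f1 and Rb1 failed the filter on missing values in at least 1 group. With a looser filter, which asked for 2 replicates only in the groups compared, E2f1 was called in KO against WT at 0.5 h, with -0.65 ± 0.17 (adjusted p = 0.044, n = 3 and 2). E2f1 encodes the transcription factor that gives the family its name, and its WT values at 0.5 h were 0.97 and 0.46 against 0.03, 0.23 and -0.06 in KO. Cdk2 was lower in KO at 12 h by 0.66 ± 0.19 without passing the test (adjusted p = 0.078).

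**Figure D2:**
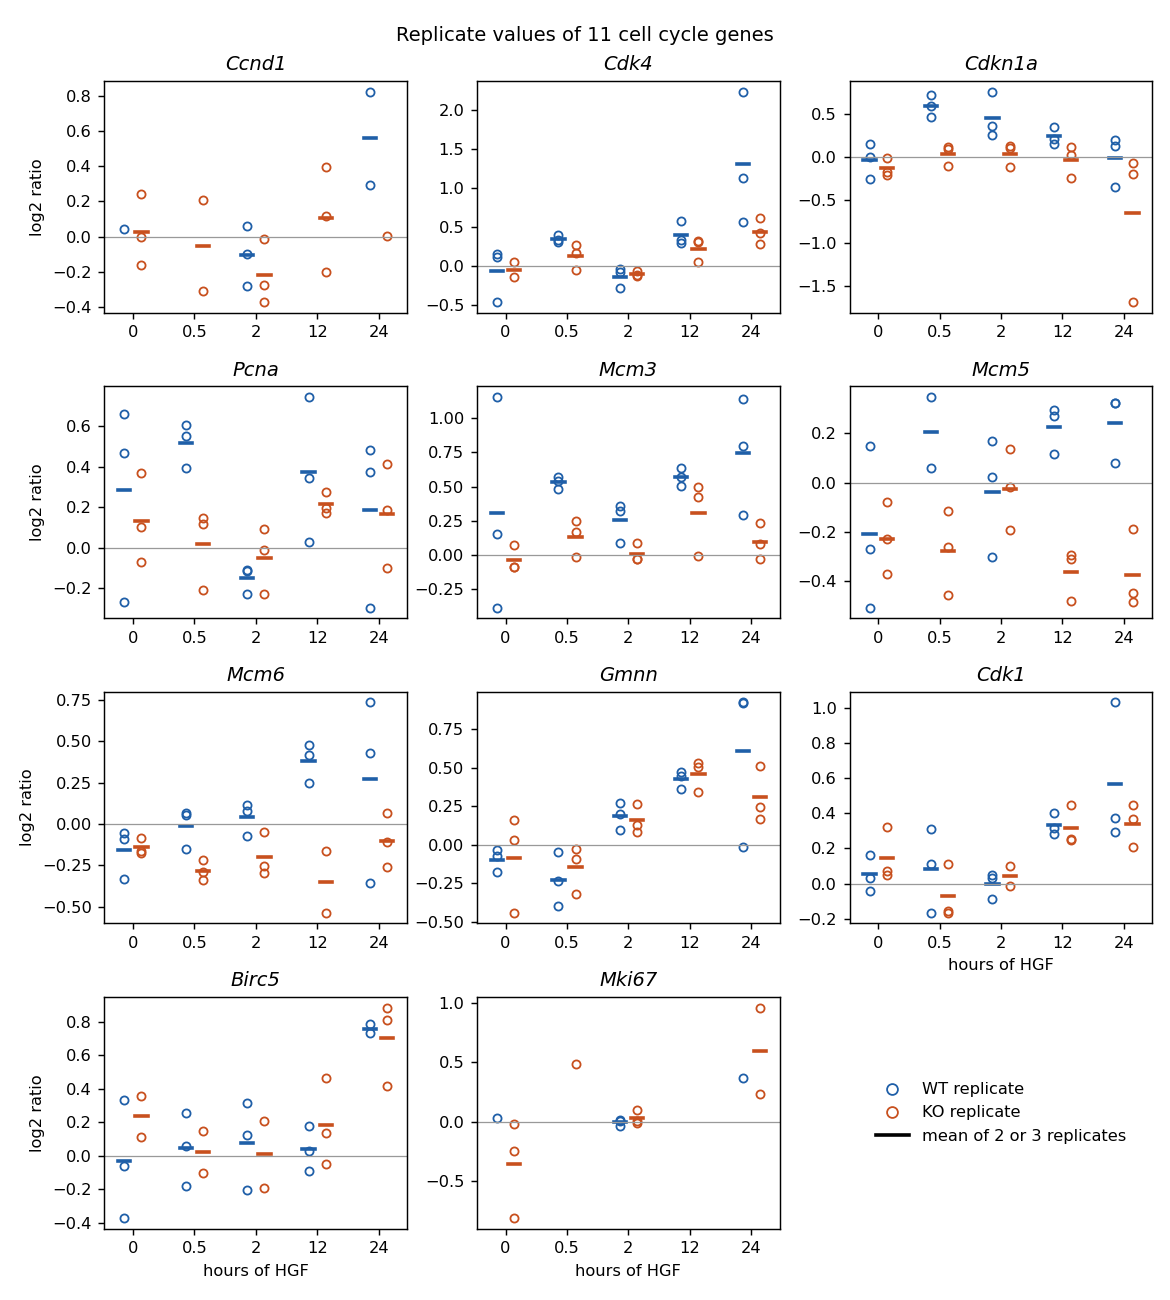
Log2 ratio to the reference (vertical axes, each with its own scale) of 11 cell cycle genes by hours of HGF (horizontal axes, unequal steps), with 1 circle per replicate and a bar at the mean of 2 or 3 replicates. Cdk4 in WT at 24 h spans 0.56 to 2.24, and the WT and KO circles of Mcm5 are apart at 12 and 24 h.

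Of the replication genes, Gmnn rose in WT at 24 h, and the helicase genes Mcm5 and Mcm6 were lower in KO than in WT at 12 h, Mcm5 also at 24 h. Averaged over the times, Mcm3, Mcm5 and Mcm6 were all lower in KO. The promoters of these genes are shown because the 3 helicase genes share matches to the E2F motif in the window from 250 bases before to 50 bases after the start of transcription. Sequences are from RefSeq on GRCm38.p6, on the strand of the gene, with capitals for matches on either strand to the E2F motif (searched as TTCCCGC and, in the other forms used here, as TTCGCGC, then as the variant TTGCCGC, and also as TTGGCGC), the CHR motif (TTTGAA) and the CCAAT motif (CCAAT), which can overlap each other.
Mcm3 (GRCm38.p6 chr1:20820263-20820562, minus strand): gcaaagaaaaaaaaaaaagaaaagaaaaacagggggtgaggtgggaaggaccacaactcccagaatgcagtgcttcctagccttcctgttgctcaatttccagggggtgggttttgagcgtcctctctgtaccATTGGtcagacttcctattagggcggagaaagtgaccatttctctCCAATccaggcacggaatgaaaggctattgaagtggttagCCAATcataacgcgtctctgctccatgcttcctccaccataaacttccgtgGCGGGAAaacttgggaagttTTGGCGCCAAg
Mcm5 (GRCm38.p6 chr8:75109259-75109558, plus strand): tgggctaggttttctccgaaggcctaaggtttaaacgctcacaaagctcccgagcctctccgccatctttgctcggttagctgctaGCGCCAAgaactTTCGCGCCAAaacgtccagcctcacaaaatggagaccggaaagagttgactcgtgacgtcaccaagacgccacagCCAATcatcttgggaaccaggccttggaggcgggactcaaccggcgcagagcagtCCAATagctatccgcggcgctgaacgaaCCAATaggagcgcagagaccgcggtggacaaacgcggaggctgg
Mcm6 (GRCm38.p6 chr1:128359656-128359955, minus strand): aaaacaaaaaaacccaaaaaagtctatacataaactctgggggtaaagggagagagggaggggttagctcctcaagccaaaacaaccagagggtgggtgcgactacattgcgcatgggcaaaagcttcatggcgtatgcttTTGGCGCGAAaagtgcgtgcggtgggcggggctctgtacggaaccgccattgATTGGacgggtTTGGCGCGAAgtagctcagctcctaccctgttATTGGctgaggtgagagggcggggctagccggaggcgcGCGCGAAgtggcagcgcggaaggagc

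The window of Mcm3 held 3 matches to E2F on both strands together, that of Mcm5 held 3 and that of Mcm6 held 5. Of 37 members with a window in the table, E2F matches were found in 11 of 15 replication genes (73.3%), 2 of 9 G1 regulators (22.2%) and 3 of 13 mitosis genes (23.1%). Of 27025 genes with such a window, 9.69% held one. CHR matches showed the other order, with 10 of 13 mitosis genes (76.9%), 1 of 15 replication genes (6.67%), which was Mcm2, and 0 of 9 G1 regulators, against 18.1% of all genes. CCAAT matches were in 92.3% of the windows of mitosis genes, 66.7% of those of replication genes, 22.2% of those of G1 regulators and 37.9% of all. The windows of Cdk4, Cdkn1a, Pcna and Birc5 held no E2F and no CHR match. A match is a run of letters only, and binding was not measured here. Gmnn and Ccnd1 are named without a window.

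**Figure D3:**
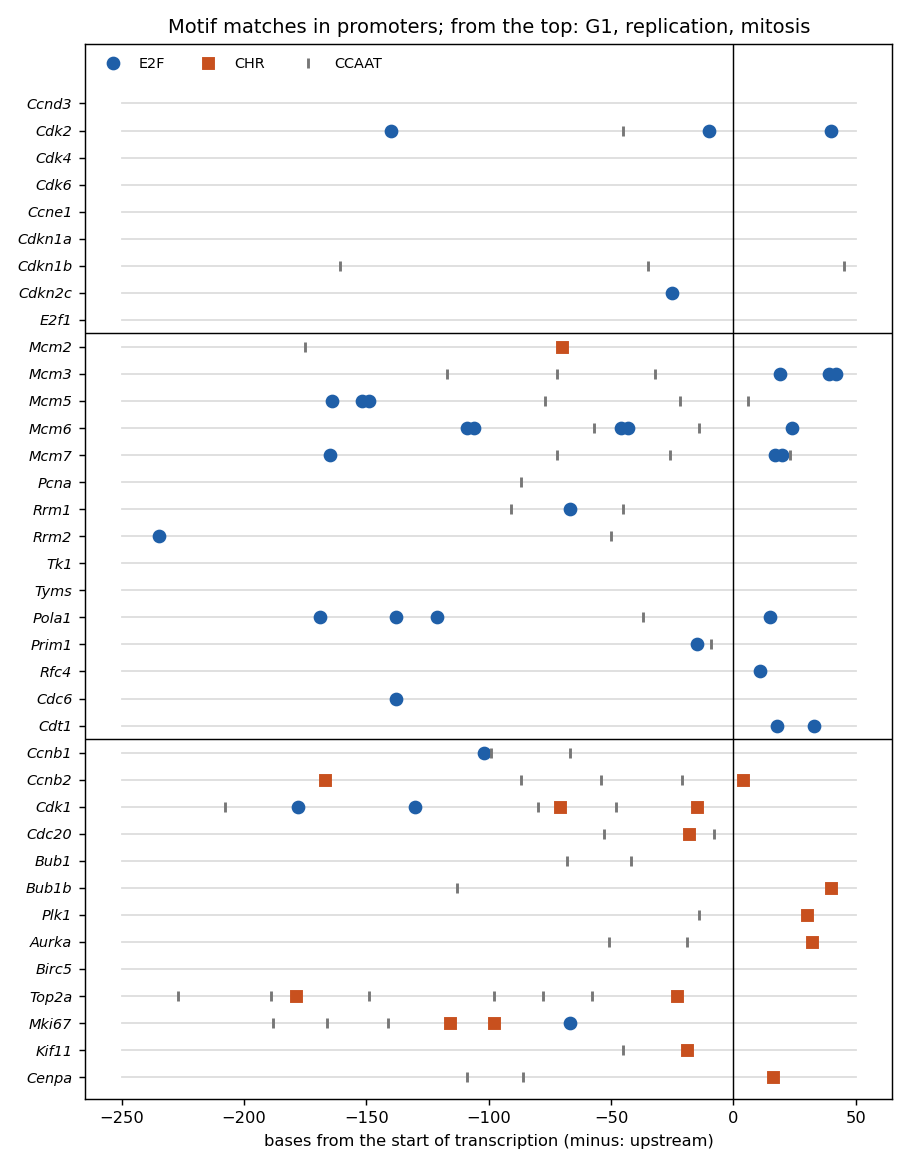
First base of each match to the E2F (circle), CHR (square) and CCAAT (tick) motifs, on either strand, by distance in bases from the start of transcription, for 37 cell cycle genes by role. Circles lie in 11 of 15 replication genes and squares in 10 of 13 mitosis genes.

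Mcm5, a subunit of the helicase that unwinds DNA at replication forks, gave the smallest adjusted p of the members in KO against WT. Mcm5 in WT had log2 ratios of -0.27, 0.15 and -0.51 untreated, 0.35 and 0.06 at 0.5 h, -0.30, 0.17 and 0.02 at 2 h, 0.29, 0.12 and 0.27 at 12 h, and 0.32, 0.32 and 0.08 at 24 h, with 1 missing at 0.5 h. Mcm5 in KO had log2 ratios of -0.23, -0.37 and -0.08 untreated, -0.26, -0.46 and -0.12 at 0.5 h, -0.19, -0.02 and 0.14 at 2 h, -0.48, -0.29 and -0.31 at 12 h, and -0.45, -0.48 and -0.19 at 24 h. At 12 and 24 h all WT values were above 0 and all KO values below 0, while the genotypes overlapped untreated and at 2 h. At 12 h the means were -0.36 ± 0.10 (SD, n = 3) in KO and 0.23 ± 0.10 (SD, n = 3) in WT, a difference of -0.59 ± 0.15 (adjusted p = 0.038). At that time 2.84% of all tested probes were called. At 24 h the difference was -0.61 ± 0.15 (adjusted p = 0.02), and averaged over the times -0.34 ± 0.07 (adjusted p = 0.0024, n = 15 in KO and 14 in WT). The dyes gave -0.61 on Cy5 and -0.57 on Cy3 arrays at 12 h, but -0.90 and -0.33 (adjusted p = 0.45 on Cy3 arrays alone) at 24 h. For the average they gave -0.25 (adjusted p = 0.066) and -0.43. The call at 12 h was lost when any of the 6 compared replicates was left out, with -0.64 to -0.53 and an adjusted p up to 0.15, namely -0.55, -0.64 and -0.57 without WT 12 h replicate 1, 2 or 3 and -0.53, -0.62 and -0.61 without KO 12 h replicate 1, 2 or 3. That at 24 h was lost without WT 24 h replicate 1 (-0.57), WT 24 h replicate 2 (-0.57) or KO 24 h replicate 2 (-0.56), but was kept without both doubted replicates (-0.56, adjusted p = 0.048). Weighting replicates by the spread of their group ended both calls (adjusted p = 0.056 and 0.51), as did scaling the arrays to equal spread (0.063 and 0.12), and fitting these 2 groups alone ended that at 24 h (0.41). The average was called in all 30 omissions, from -0.37 to -0.30. Against untreated, Mcm5 was 0.45 ± 0.15 (adjusted p = 0.074) in WT and -0.15 ± 0.15 (adjusted p = 0.77) in KO at 24 h.

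Mcm6 belongs to the same helicase. Mcm6 in WT had log2 ratios of -0.05, -0.09 and -0.33 untreated, 0.07, 0.06 and -0.15 at 0.5 h, -0.07, 0.12 and 0.08 at 2 h, 0.42, 0.25 and 0.48 at 12 h, and 0.74, 0.43 and -0.36 at 24 h. Mcm6 in KO had log2 ratios of -0.08, -0.18 and -0.16 untreated, -0.34, -0.29 and -0.22 at 0.5 h, -0.26, -0.05 and -0.30 at 2 h, -0.16 and -0.54 at 12 h, and -0.11, 0.07 and -0.26 at 24 h, with 1 missing at 12 h. At 12 h the 3 WT values lay above 0 and both KO values below 0. The difference there was -0.73 ± 0.20 (adjusted p = 0.045, n = 2 and 3), with -0.76 on Cy5 and -0.56 on Cy3 arrays, and the call was kept only without WT 0 h replicate 1 or 3, any WT 24 h replicate, or KO 24 h replicate 2 or 3. The other 23 omissions ended it, with values from -0.92 to -0.54 over all 30. The average over the times, -0.32 ± 0.08 (adjusted p = 0.012, n = 14 in KO and 15 in WT), was called in all 30 omissions and was -0.35 without the doubted replicates. It was -0.31 (adjusted p = 0.064) on Cy5 and -0.30 (adjusted p = 0.11) on Cy3 arrays, and was called on neither alone. At 24 h the lowest WT value of Mcm6, -0.36, lay below all KO values.

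Mcm3 is a further subunit. Mcm3 in WT had log2 ratios of 0.15, 1.15 and -0.38 untreated, 0.48, 0.54 and 0.57 at 0.5 h, 0.09, 0.36 and 0.33 at 2 h, 0.63, 0.57 and 0.51 at 12 h, and 0.79, 1.14 and 0.30 at 24 h. Mcm3 in KO had log2 ratios of -0.09, -0.09 and 0.07 untreated, 0.17, 0.25 and -0.02 at 0.5 h, -0.03, -0.03 and 0.09 at 2 h, -0.00, 0.49 and 0.42 at 12 h, and 0.08, 0.24 and -0.03 at 24 h. WT and KO did not overlap at 0.5, 12 and 24 h and met at 2 h, while untreated WT was spread from -0.38 to 1.15. No single time passed the test, the largest difference being -0.65 ± 0.24 (adjusted p = 0.12) at 24 h. The average was -0.38 ± 0.11 (adjusted p = 0.02, n = 15 in KO and 15 in WT), called in all 30 omissions and -0.46 without the doubted replicates. It was -0.29 (adjusted p = 0.17) on Cy5 and -0.47 (adjusted p = 0.13) on Cy3 arrays, and was called on neither alone.

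Of the other helicase genes, Mcm2 had an average KO minus WT difference of 0.07 ± 0.08 (adjusted p = 0.7, n = 15 in KO and 15 in WT). Mcm4 and Mcm7 failed the filter on missing values. Mcm4 in WT had log2 ratios of -0.36 and -0.32 untreated, 0.56, 0.36 and 0.35 at 2 h, 0.05, 1.10 and 0.79 at 12 h, and 1.26, 1.38 and 0.70 at 24 h, with 1 missing untreated and 3 missing at 0.5 h. Mcm4 in KO had log2 ratios of 0.32, 0.27 and 0.36 untreated, -0.19, 0.26 and 0.22 at 0.5 h, 0.30, 0.21 and 0.44 at 2 h, 0.04, 0.78 and 0.33 at 12 h, and 0.64, 0.10 and 0.27 at 24 h. In WT, every 24 h value of Mcm4 lay above every untreated one, while the KO values at 24 h overlapped the untreated ones. With the looser filter Mcm4 was called in WT at 24 h with 1.45 ± 0.25 (adjusted p = 0.00095, n = 3 and 2) and at 12 h with 0.98 ± 0.26 (adjusted p = 0.033, n = 3 and 2). In KO the 24 h difference was 0.02 ± 0.23, and the difference of the responses, -1.43 ± 0.34, did not pass the test (adjusted p = 0.062, n = 2 or 3 a group). Untreated Mcm4 was 0.65 ± 0.26 higher in KO without passing the test (adjusted p = 0.87, n = 3 and 2). Mcm7 had group means from -0.21 to 0.44.

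Gmnn encodes geminin, which blocks a further loading of the helicase within the same cycle. Gmnn in WT had log2 ratios of -0.18, -0.04 and -0.07 untreated, -0.24, -0.05 and -0.40 at 0.5 h, 0.27, 0.20 and 0.10 at 2 h, 0.45, 0.36 and 0.47 at 12 h, and 0.93, 0.92 and -0.01 at 24 h. Gmnn in KO had log2 ratios of 0.16, -0.44 and 0.03 untreated, -0.32, -0.09 and -0.03 at 0.5 h, 0.13, 0.08 and 0.27 at 2 h, 0.53, 0.34 and 0.51 at 12 h, and 0.51, 0.17 and 0.24 at 24 h. In both genotypes the values at 12 h lay above all untreated values. In WT at 24 h, replicates 1 and 2 lay near 0.9 and replicate 3 just above the untreated values. The WT mean went from -0.10 ± 0.07 (SD, n = 3) to 0.61 ± 0.54 (SD, n = 3) at 24 h, a rise of 0.71 ± 0.18 (adjusted p = 0.014). The rise was 0.84 on Cy5 and 0.57 on Cy3 arrays and 1.03 within array set C, and it was lost without WT 24 h replicate 1 (0.55, adjusted p = 0.096) or replicate 2 (0.55, adjusted p = 0.096). Scaling arrays to equal spread (adjusted p = 0.082), weighting replicates (0.12) and fitting only the groups compared (0.40) also ended the call. So did Cy5 arrays alone (adjusted p = 0.091) and turning all Cy3 arrays (0.69). KO differed from untreated by 0.39 ± 0.18 (adjusted p = 0.28) at 24 h, and KO from WT by -0.30 ± 0.18 (adjusted p = 0.38).

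Pcna, the sliding clamp of the polymerases and a common marker of S phase, was not called in any comparison, apart from the alternatives given below. Pcna in WT had log2 ratios of 0.66, 0.47 and -0.27 untreated, 0.40, 0.60 and 0.55 at 0.5 h, -0.11, -0.11 and -0.23 at 2 h, 0.03, 0.35 and 0.74 at 12 h, and 0.48, 0.37 and -0.29 at 24 h. Pcna in KO had log2 ratios of 0.37, 0.10 and -0.07 untreated, 0.12, -0.21 and 0.15 at 0.5 h, -0.01, -0.23 and 0.09 at 2 h, 0.17, 0.20 and 0.28 at 12 h, and 0.19, 0.42 and -0.10 at 24 h. The untreated WT values alone ran from -0.27 to 0.66, wider than most differences between groups. Without the doubted replicates, limma called Pcna lower in WT at 2 h than untreated (-0.71, adjusted p = 0.047). With the Cy5 array of WT 0 h replicate 3 turned it was called there too (-0.65, adjusted p = 0.033). At 24 h Pcna differed from untreated by -0.10 ± 0.21 (adjusted p = 0.85) in WT and by 0.03 ± 0.21 (adjusted p = 0.98) in KO. The largest KO minus WT difference, -0.50 ± 0.21 (adjusted p = 0.18) at 0.5 h, had no overlap between the genotypes.

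None of the tested enzymes of nucleotide supply was called. At 24 h in WT, Rrm1 and Rrm2 differed from untreated by 0.21 ± 0.15 (adjusted p = 0.47) and 0.34 ± 0.23 (adjusted p = 0.43), Tk1, thymidine kinase, by -0.07 ± 0.18 (adjusted p = 0.87), and Tyms, thymidylate synthase, by -0.32 ± 0.17 (adjusted p = 0.29, n = 3 and 2). Prim1, the primase subunit, came closest to a call with 0.46 ± 0.15 (adjusted p = 0.06). Cdc6, a loading factor of the helicase, was -0.24 ± 0.15 (adjusted p = 0.4). Pola1 and Rfc4, of the polymerase and clamp loading steps, failed the filter. Pola1 was lower in KO at 24 h by 0.84 ± 0.25 under the looser filter without passing the test (adjusted p = 0.070).

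Of the mitosis genes, Cdk1 and Birc5 rose in WT at 24 h, and none was called in KO against WT. The promoter of Cdk1 is shown with that of Mki67 because both held E2F, CHR and CCAAT matches together, marked in capitals as above.
Cdk1 (GRCm38.p6 chr10:69352863-69353162, minus strand): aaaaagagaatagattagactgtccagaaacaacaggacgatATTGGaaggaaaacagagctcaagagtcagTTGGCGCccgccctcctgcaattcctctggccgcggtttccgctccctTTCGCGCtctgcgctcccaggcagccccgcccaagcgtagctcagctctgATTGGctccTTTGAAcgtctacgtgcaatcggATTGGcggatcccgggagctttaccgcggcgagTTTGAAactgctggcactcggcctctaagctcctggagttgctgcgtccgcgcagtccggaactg
Mki67 (GRCm38.p6 chr7:135716330-135716629, minus strand): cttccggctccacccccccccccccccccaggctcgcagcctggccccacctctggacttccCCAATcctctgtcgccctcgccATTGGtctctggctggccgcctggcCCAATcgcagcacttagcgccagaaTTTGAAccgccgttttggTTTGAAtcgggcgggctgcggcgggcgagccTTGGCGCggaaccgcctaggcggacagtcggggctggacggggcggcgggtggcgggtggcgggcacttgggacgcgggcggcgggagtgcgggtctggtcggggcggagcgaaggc

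Cdk1 encodes the kinase that starts mitosis. Cdk1 in WT had log2 ratios of -0.04, 0.16 and 0.03 untreated, 0.11, -0.17 and 0.31 at 0.5 h, -0.09, 0.03 and 0.05 at 2 h, 0.28, 0.32 and 0.40 at 12 h, and 0.37, 1.03 and 0.30 at 24 h. Cdk1 in KO had log2 ratios of 0.32, 0.07 and 0.05 untreated, -0.17, 0.11 and -0.16 at 0.5 h, -0.01 and 0.10 at 2 h, 0.25, 0.44 and 0.25 at 12 h, and 0.21, 0.36 and 0.45 at 24 h, with 1 missing at 2 h. All values of both genotypes at 12 h were between 0.25 and 0.44, and WT did not overlap its untreated values at 12 or 24 h. The WT mean went from 0.05 ± 0.10 (SD, n = 3) to 0.57 ± 0.40 (SD, n = 3), a rise of 0.51 ± 0.15 (adjusted p = 0.035), or 1.43-fold. Both dyes differed, with 0.93 on Cy5 and 0.10 on Cy3 arrays. The call was lost without WT 24 h replicate 2 (0.28, adjusted p = 0.25), WT 0 h replicate 1 (0.47, adjusted p = 0.11) or WT 0 h replicate 3 (0.51, adjusted p = 0.072), and without both doubted replicates (0.51, adjusted p = 0.073). Scaling arrays to equal spread (adjusted p = 0.14), weighting replicates (0.25) and fitting only the groups compared (0.51) also ended it. So did Cy3 arrays alone (adjusted p = 0.88), turning all Cy3 arrays (0.15) and the fit within array set C (0.078). In KO, Cdk1 was 0.19 ± 0.15 (adjusted p = 0.64) at 24 h.

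Birc5 encodes survivin, a subunit of the chromosomal passenger complex. Birc5 in WT had log2 ratios of -0.06, -0.37 and 0.34 untreated, 0.06, -0.18 and 0.26 at 0.5 h, 0.13, 0.31 and -0.20 at 2 h, -0.09, 0.18 and 0.03 at 12 h, and 0.79 and 0.73 at 24 h, with 1 missing at 24 h. Birc5 in KO had log2 ratios of 0.36 and 0.11 untreated, 0.15 and -0.10 at 0.5 h, 0.21 and -0.19 at 2 h, -0.05, 0.14 and 0.46 at 12 h, and 0.41, 0.81 and 0.89 at 24 h, with 1 missing untreated, 1 missing at 0.5 h and 1 missing at 2 h. Both WT values at 24 h lay above all earlier WT values, and the KO values at 24 h lay on both sides of them. The rise in WT was 0.79 ± 0.21 (adjusted p = 0.022, n = 2 and 3), 1.16 on Cy5 and 0.56 on Cy3 arrays, and 0.98 without the doubted replicates. It was lost without WT 0 h replicate 1 (0.78, adjusted p = 0.052) or 2 (0.62, adjusted p = 0.094). Without WT 24 h replicate 2 or 3, which leaves 1 value in that group, it was 0.77 and 0.82. Scaling arrays to equal spread (adjusted p = 0.087), weighting replicates (0.25) and fitting only the groups compared (0.32) also ended the call. So did Cy3 arrays alone (adjusted p = 0.19) and turning all Cy3 arrays (0.38). KO differed from untreated by 0.47 ± 0.21 (adjusted p = 0.28, n = 3 and 2), and KO from WT at 24 h by -0.06 ± 0.21 (adjusted p = 0.92, n = 3 and 2).

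Mki67, which encodes the proliferation marker Ki-67, had values for 14 of 30 replicates and was not tested. Mki67 in WT had log2 ratios of 0.04 untreated, 0.01, 0.01 and -0.03 at 2 h, and 0.37 at 24 h, with 2 missing untreated, 3 missing at 0.5 h, 3 missing at 12 h and 2 missing at 24 h. Mki67 in KO had log2 ratios of -0.81, -0.24 and -0.02 untreated, 0.49 at 0.5 h, 0.01, -0.01 and 0.10 at 2 h, and 0.24 and 0.96 at 24 h, with 2 missing at 0.5 h, 3 missing at 12 h and 1 missing at 24 h. In KO both 24 h values lay above all untreated ones, and under the looser filter the difference was 0.96 ± 0.25 without passing the test (adjusted p = 0.080, n = 2 and 3). Ccna2, cyclin A2, also failed the filter. Ccna2 in WT had log2 ratios of -0.10, -0.07 and -0.02 untreated, 0.20 at 0.5 h, -0.06 at 2 h, 0.38, 0.12 and -0.16 at 12 h, and 0.97, 0.60 and 0.35 at 24 h, with 2 missing at 0.5 h and 2 missing at 2 h. Ccna2 in KO had log2 ratios of 0.17 and 0.20 untreated, 0.12, 0.06 and 0.25 at 0.5 h, -0.15 at 2 h, 0.16, 0.78 and 0.15 at 12 h, and 0.61, 0.50 and 0.57 at 24 h, with 1 missing untreated and 2 missing at 2 h. Its WT values at 24 h lay above the untreated ones, with 0.70 ± 0.18 (adjusted p = 0.023) under the looser filter, and the KO values at 24 h lay between 0.50 and 0.61.

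The remaining tested mitosis genes were not called. At 24 h in WT, Top2a, the topoisomerase of chromosome condensation, differed from untreated by 0.30 ± 0.20 (adjusted p = 0.41), Plk1 by -0.17 ± 0.16 (adjusted p = 0.59, n = 3 and 2), Aurkb by 0.02 ± 0.13 (adjusted p = 0.95), the spindle motor Kif11 by -0.13 ± 0.14 (adjusted p = 0.66) and the checkpoint kinase Bub1b by -0.18 ± 0.40 (adjusted p = 0.86). Aurka had 0.43 ± 0.46 (adjusted p = 0.66) in WT and -0.48 ± 0.51 (adjusted p = 0.77, n = 3 and 2) in KO, but 0.47 ± 0.23 in KO without KO 24 h replicate 2, so 1 replicate set its direction. Ccnb2, Cdc20, Bub1 and Cenpa failed the filter, and none of them was called under the looser one.

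Set against each other in WT at 24 h, the replication genes had the highest median difference from untreated, 0.39 over 12 genes, against 0.19 over 7 G1 regulators, 0.16 over 8 mitosis genes and -0.03 over all tested probes. These medians moved with 1 array: with the Cy5 array of WT 0 h replicate 3 turned they were 0.20, 0.18 and -0.03, and without the doubted replicates 0.17, 0.07 and 0.04. With all Cy3 arrays turned they were 0.40, 0.19 and 0.16, against 0.08 over all probes. Without WT 24 h replicate 2 they were 0.24, 0.09 and 0.10. The difference between the roles was not tested. Of the 27 tested members, 18 lay above 0 and 9 below, where 45.1% of all tested probes lay above 0. Of these members 4 (Cdk4, Gmnn, Cdk1 and Birc5) rose. In the same direction 3.96% of all tested probes were called. In KO at 24 h the medians were 0.02 for replication, 0.04 for G1 and 0.09 for mitosis genes, and limma called 0 of 27 members against 3.48% of probes, with 3 members at an unadjusted p under 0.05. The plot of the 24 h responses shows both genotypes side by side. The arrays read RNA of whole cultures, so fewer cycling cells and less RNA per cell cannot be told apart.

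**Figure D4:**
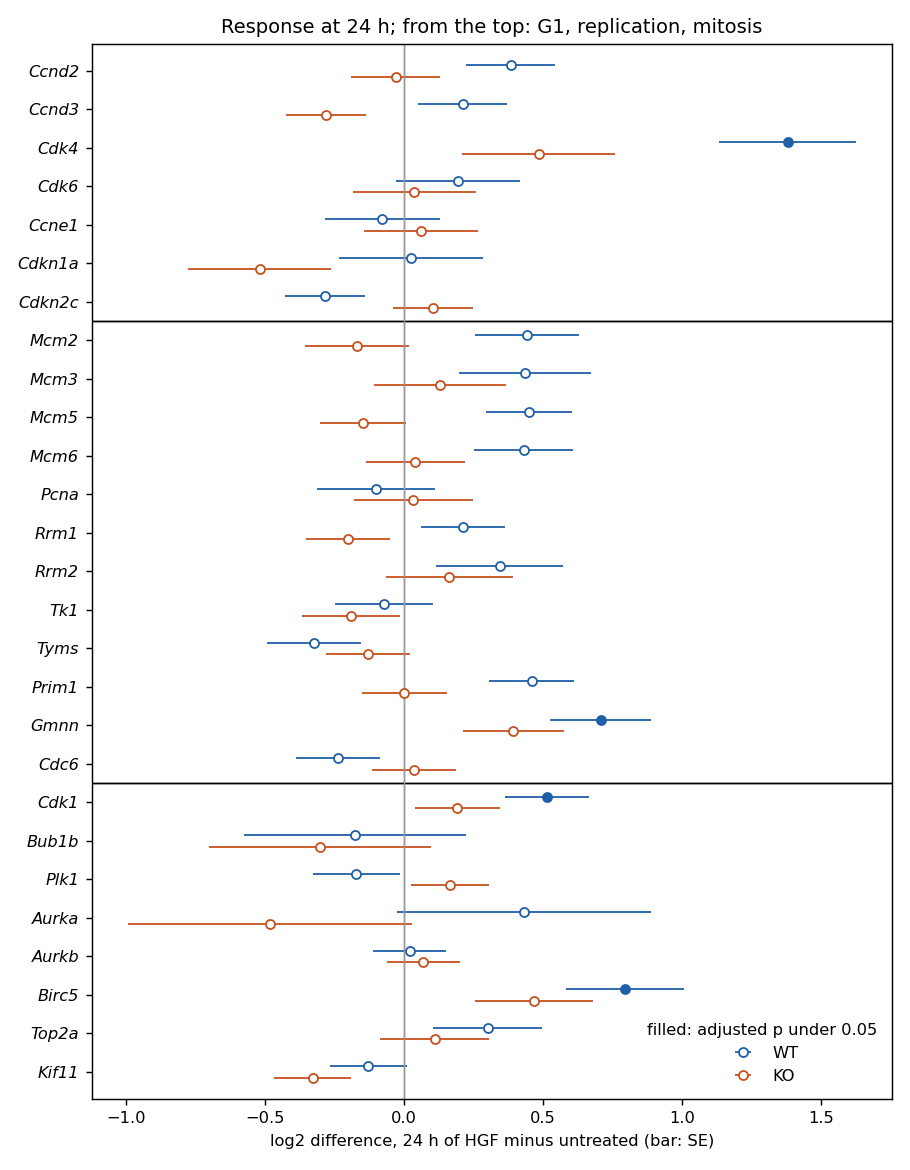
Log2 difference between 24 h of HGF and untreated (horizontal axis) with its SE for the 27 tested members (vertical axis, by role), WT and KO in separate colours, filled where the adjusted p was under 0.05. The 4 filled points, Cdk4, Gmnn, Cdk1 and Birc5, are all WT, and the replication genes of WT spread from -0.32 to 0.71.

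The difference between the responses of KO and WT at 24 h had a median of -0.31 over the replication genes, -0.41 over the G1 regulators, -0.20 over the mitosis genes and 0.00 over all tested probes. Against 49.9% of all tested probes, 20 of the 27 members lay below 0. None passed the limma test of this difference, with 5 at an unadjusted p under 0.05, and 0.727% of all tested probes were called. The largest were -0.91 ± 0.69 (adjusted p = 0.62, n = 2 or 3 a group) for Aurka, -0.90 ± 0.37 (adjusted p = 0.33, n = 2 or 3 a group) for Cdk4 and -0.61 ± 0.27 (adjusted p = 0.36) for Mcm2. Without KO 24 h replicate 2 the value of Aurka was 0.03, and those of Cdk4 and Mcm2 were -0.89 and -0.68. Without WT 24 h replicate 2 that of Cdk4 was -0.43. The medians were -0.25 for replication, -0.10 for G1 and -0.09 for mitosis genes when both doubted replicates were left out, and -0.13, -0.37 and -0.07 without WT 24 h replicate 2.

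At the earlier times no member was called against untreated cells. In WT, limma called 0 of 27 members at 0.5 h (background 0.123% of probes), at 2 h (0.446%) and at 12 h (5.81%), with 4, 2 and 4 members at an unadjusted p under 0.05. Array set changed together with HGF in those at 0.5 and 2 h. At 12 h in WT, 22 of 27 members lay above 0, against 52.7% of all tested probes. The medians were 0.24 for replication, 0.12 for G1 and 0.15 for mitosis genes. Without the doubted replicates 9 members lay below 0, and the medians were 0.09, -0.02 and 0.14. With arrays scaled to equal spread they were 0.10, 0.01 and 0.09. With all replicates and no scaling, the differences farthest above 0 at 12 h in WT were 0.54 ± 0.18 (adjusted p = 0.072) for Mcm6 and 0.52 ± 0.18 (adjusted p = 0.089) for Gmnn. In KO, 0 of 27 were called at 0.5 h (0.00686% of probes), 2 h (0.0343%) and 12 h (0.13%), with 0, 1 and 3 at an unadjusted p under 0.05. The differences of the responses gave 0 calls at 0.5 h (0.00686%), 2 h (0.0274%) and 12 h (0.0754%), with 0, 1 and 2 at an unadjusted p under 0.05. Between 12 and 24 h, 0 members were called in WT (2.05% of probes, 4 members at an unadjusted p under 0.05) and in KO (0.528%, 7 members). In WT, Cdk4 differed between these times by 0.91 ± 0.25 (adjusted p = 0.053) and Birc5 by 0.72 ± 0.21 (adjusted p = 0.076, n = 2 and 3), but without WT 24 h replicate 2 by 0.44 and 0.69. Without the doubted replicates both were called (adjusted p = 0.035 and 0.044). In KO, 11 of 12 replication genes had a value below 0 for 24 h against 12 h, against 53.8% of all tested probes, and none passed the test.

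Between the genotypes, limma called 0 of 27 members in untreated cells and 0.0617% of probes, with 1 member at an unadjusted p under 0.05, Mcm2 with 0.48 ± 0.19 (adjusted p = 0.84). At 0.5 h limma called 0 members (4.3% of probes, 6 members at an unadjusted p under 0.05) and at 2 h 0 (0.432%, 2 members). At 24 h, 21 of 27 members lay below 0, against 49.3% of all tested probes, and Cdk4 and Mcm5 passed the test. The medians were -0.37 for G1, -0.20 for replication and -0.07 for mitosis genes. Without WT 24 h replicate 2, 16 members lay below 0 and the medians were -0.24, -0.13 and 0.0041, and without KO 24 h replicate 2 they were -0.19, -0.28 and -0.07. Over the 5 times, 4 of 135 member tests were called (2.96%), against 2.48% of all probe tests, which is near the background. In the average 4 of 27 members were called (14.8%), all lower in KO, while 5.15% of probes were called lower. The plot of KO against WT shows Mcm3, Mcm5 and Mcm6 as the only replication genes called in the average.

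**Figure D5:**
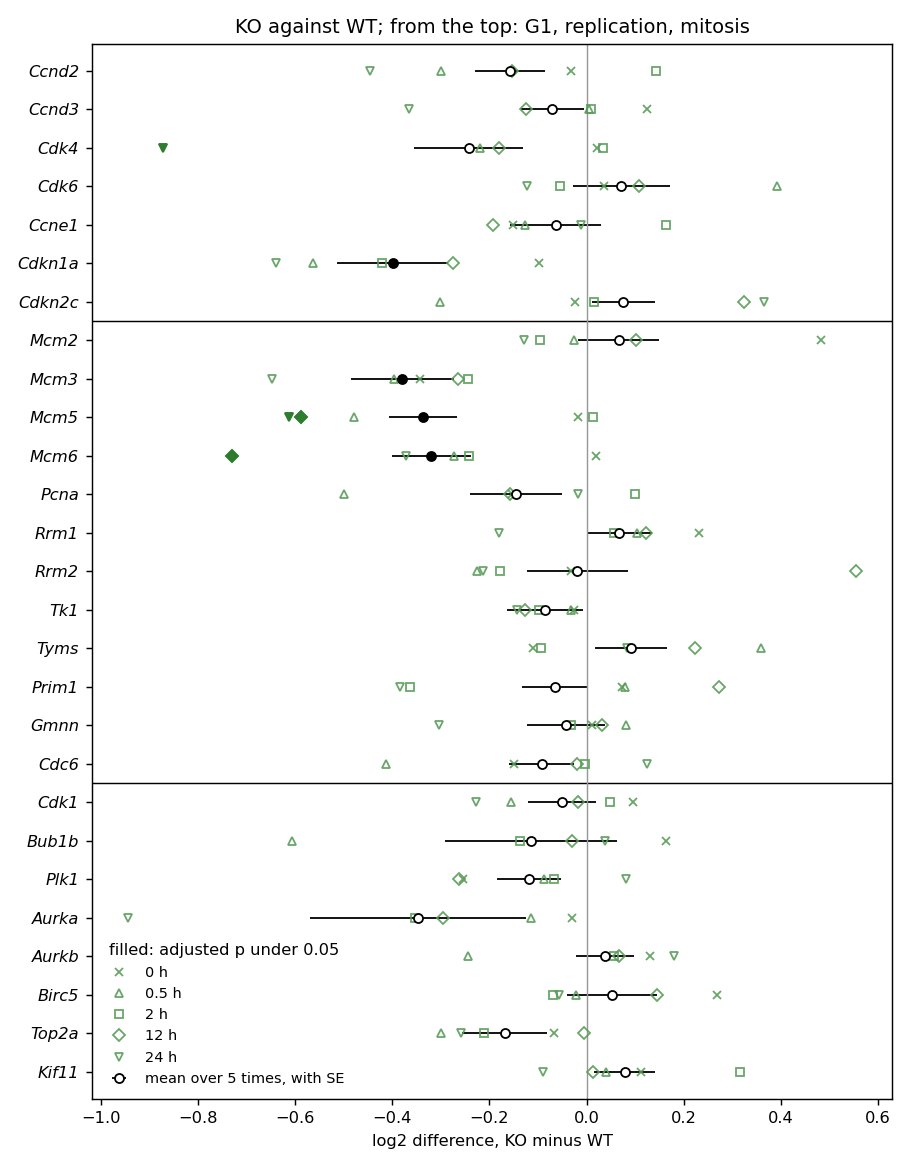
Log2 difference between KO and WT (horizontal axis) for the 27 tested members (vertical axis, by role), as the average over 5 times with its SE (circles) and at each time (other marks), filled where the adjusted p was under 0.05. The filled circles are Cdkn1a at -0.40, Mcm3 at -0.38, Mcm5 at -0.34 and Mcm6 at -0.32.

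A wider set of 179 genes of the cycle that are not members, 110 of them tested, was read in the same way. These genes too were chosen with earlier results of these data known, so their shares are no independent check. In WT at 24 h, 20 of 110 were called (18.2%), against 8.72% of all tested probes, 17 higher (15.5%, against 3.96%) and 3 lower: 4 of 29 further G1 and checkpoint genes, 6 of 45 further replication genes and 10 of 36 further mitosis genes. The median difference over the 110 was 0.18. The largest was Stmn1, a microtubule regulator, whose WT values went from -0.06, -0.15 and 0.03 to 1.94, 2.12 and 1.37, with no overlap, a rise of 1.87 ± 0.18 (adjusted p = 1.7e-07). Nusap1, a spindle protein, rose by 0.84 ± 0.12 (adjusted p = 6.3e-05, n = 3 and 2), Ube2c, which serves the anaphase-promoting complex, by 1.12 ± 0.22 (adjusted p = 0.0014, n = 2 and 3), and Dut, which keeps uracil out of DNA, by 0.92 ± 0.14 (adjusted p = 0.00013). The count was 12 without WT 24 h replicate 2, 13 without WT 24 h replicate 1 and 32 without WT 24 h replicate 3, and 21 without the doubted replicates. It was 1 with only the groups compared, 5 with weighted replicates, 9 with arrays scaled to equal spread and 31 with array set as a term.

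In KO at 24 h, 4 of the 110 were called (3.64%), near the 3.48% of all tested probes. Stmn1 rose there too, from 0.28, -0.16 and 0.05 to 1.13, 1.25 and 1.78, by 1.33 ± 0.18 (adjusted p = 0.00024). Ube2c rose by 0.75 ± 0.19 (adjusted p = 0.031) and Nusap1 by 0.49 ± 0.11 (adjusted p = 0.013), while the cohesin gene Stag2 fell by 0.60 ± 0.15 (adjusted p = 0.023). Of KO against WT at 12 h, 4 were called (3.64%, against 2.84% of probes), all lower, with Pold1, the catalytic subunit of DNA polymerase delta, at -1.02 ± 0.15 (adjusted p = 0.00036) and Gins2, of the replicative helicase complex, at -0.94 ± 0.20 (adjusted p = 0.0075). Gins2 read -0.11 on Cy5 and -1.76 on Cy3 arrays. At 24 h Pold1 was lower in KO by 0.78 ± 0.15 (adjusted p = 0.0026). In the average, 13 of the 110 were called (11.8%), near the 10.2% of all tested probes. Of these, 10 were lower in KO and 3 higher, led by Pold1 with -0.50 ± 0.07 (adjusted p = 2.0e-05), Btg1, an antiproliferative factor, with -0.56 ± 0.09 (adjusted p = 0.00013) and Gadd45a, a DNA damage response gene, with -0.50 ± 0.08 (adjusted p = 0.00014).

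Markers of cell types moved with the 24 h comparison in WT. Of all tested probes, 8.72% were called there in either direction, and 3.48% in KO at 24 h. Of 11 tested hepatocyte markers 5 fell, Cyp2e1 by 2.10 ± 0.24, and the mean over the list was -0.39 to 0.18 in untreated and -1.41 to -0.86 in 24 h replicates. In KO 5 of 11 fell as well, and the list mean at 24 h was -1.28 to -0.05. Of 9 tested Kupffer and leukocyte markers 3 fell in WT, with list means of -0.32 to -0.0011 untreated and -0.65 to -0.51 at 24 h. Of 6 bile duct markers, Krt7 rose by 0.61 ± 0.12, Cftr fell by 1.09 ± 0.27 and Cldn4 rose by 1.10 ± 0.24 (5 replicates in all), with 2.29 on Cy5 and -0.12 on Cy3 arrays. Of 5 stellate and fibroblast markers Col3a1 fell, of 6 lymphocyte markers Cd79b fell, and 0 of 5 endothelial markers were called. Between the genotypes at 12 h, the list means did not overlap for hepatocyte markers, -0.61 to -0.46 in KO against -0.93 to -0.77 in WT. Nor did those of endothelial markers, -0.49 to -0.40 against -0.17 to 0.09, or of bile duct markers, -0.26 to -0.23 against -0.21 to -0.16. Those of stellate and fibroblast markers were also apart, -0.27 to 0.76 in KO against -0.36 to -0.30 in WT. Kupffer and leukocyte markers overlapped, as did lymphocyte markers. Of the endothelial markers, Dnase1l3 was lower in KO by 1.32 ± 0.23 and called. At 24 h, Mpeg1, a macrophage marker, was higher in KO by 1.23 ± 0.23, while Dnase1l3, Krt7 and Cldn4 were lower. Since values are ratios to hepatocyte RNA, they do not say whether a marker was absent. The part of these markers in the differences of the members was not tested.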

How the data were processed

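Per the labels, RNA of cultured hepatocytes and of a pooled wild-type reference was hybridised to 60 two-colour arrays, 2 for each of 30 replicates with exchanged dyes. The authors deposited log2 ratios; the base was inferred from their range, and background correction, normalization and numerator are not given in the sources used here. Here each array was centred on its median, which the arrays already lay near (-0.15 to 0.14), and the arrays of a replicate were averaged. A probe was kept when every group had at least 2 replicates with both orientations.

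Group means of all 30 replicates were fitted with limma 3.58.1 in R 4.3.3 (lmFit, eBayes), with 20 residual and 4.48 prior degrees of freedom. The variance of a probe was pooled over all groups. The residual SD over tested probes was 0.17 in WT at 2 h, 0.32 untreated and 0.36 at 24 h, and 0.43 in KO at 24 h. The SE of a 24 h comparison therefore rests partly on groups with less spread. The average over times used the replicate number within genotype as a random block (duplicateCorrelation, statmod 1.5.0). The correlation within a block was -0.0023, so cultures of a genotype counted as almost independent. If times share mice, the n of the average counts cultures and not mice. The fit was tested on simulated data with known changes, drawn with independent noise and the same SD of a probe in all groups. The simulation held no dye or array set effect, so it does not check the p-values against these or against unequal spread. KO against WT at each time, HGF against untreated in each genotype, the difference of these responses, 24 h against 12 h, and the average were compared. Replicate labels name mice and cultures, which times may share, so p-values measure the spread between these cultures.

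The members and all gene lists were chosen with earlier results of these data known. Values of every replicate are given for members called in any comparison and for Ccnd1, Pcna, Cdk1, Cdkn1a and Mki67; of other cell cycle genes, up to 3 called genes per list and comparison family are named. E2f1, Mcm4, Ccna2 and Aurka were added after their values were seen. The treatment label of the 12 h samples reads 0.5 h, and titles were used. Apart from the block of the average, replicate numbers were not taken as pairs. Of 60 same-numbered pairs, 10 had a correlation of deviations above 0.1, and the highest was 0.67. Alternatives were other filters, scalings, dyes, signs, weights, array sets and leaving out each replicate. Those without the doubted replicates or within array sets were chosen after seeing the data.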

Additional observations from a re-analysis of the deposited data

Results flagged for a closer look

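Atad2 is a chromatin regulator of replicating cells that is not one of the 45 genes. It alone of the 110 other cell cycle genes passed the test of the difference between the responses to 24 h of HGF. That is 0.909%, near the 0.727% of all tested probes. Its WT values went from -0.15, 0.03 and -0.30 untreated to 0.77, 0.92 and 0.16 at 24 h, with no overlap. Its KO values were 0.23 and 0.22 untreated, with 1 missing, and -0.01, 0.02 and 0.15 at 24 h. The response in KO minus that in WT was -0.93 ± 0.22 (limma, adjusted p = 0.044), with -1.31 on Cy5 and -0.51 on Cy3 arrays. The call was lost in 23 of 30 omissions of 1 replicate, with values from -1.15 to -0.78 and an adjusted p up to 0.16. It was also lost in 10 of 16 other settings. Among them were the fit without both doubted replicates, arrays scaled to equal spread, weighted replicates and each dye alone.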

How the results depend on the processing

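Of the calls among the 27 tested members, KO against WT gave 4 over the times, HGF in WT 4, HGF in KO 0, the difference of responses 0, 24 h against 12 h 0 and the average 4, beside 20 other cell cycle genes at 24 h in WT. Leaving out 1 replicate moved these to 1 to 9, 2 to 10, 0 to 1, 0 to 2, 0 to 2, 3 to 5 and 12 to 32. KO against WT gave 1 without WT 12 h replicate 1 or 2 and 9 without WT 24 h replicate 3, and HGF in WT gave 2 without WT 0 h replicate 1 or WT 24 h replicate 2, 9 without WT 0 h replicate 2 and 10 without WT 24 h replicate 3. KO against WT gave 1 with arrays scaled to equal spread, 0 with the stricter filter (13 members left), 7 with weighted replicates and 0 with all Cy3 arrays turned. HGF in WT gave 2 with the stricter filter, 7 with the looser one, 0 with only the compared groups, 1 with weights, 7 with array set as a term, 15 on Cy5 arrays, 2 on Cy3 arrays, 8 with the Cy5 array of WT 0 h replicate 3 turned, 3 of them lower (Ccne1, Pcna and Kif11 at 2 h), and 10 with dye profiles removed. It gave 3 with arrays scaled to equal spread, Cdk4 higher and Ccne1 and Kif11 lower at 2 h, and 6 without the doubted replicates, 4 higher and 2 lower, against 4 higher and 0 lower. With all Cy3 arrays turned it gave 4 other genes, Mcm3 at 12 h and Ccne1, Mcm5 and Mcm6 at 24 h. The 24 h against 12 h comparison gave 1 with array set as a term, 1 on Cy5 and 1 on Cy3 arrays, 1 with that array turned, 2 with dye profiles removed and 2 without the doubted replicates, which gave 1 for HGF in KO. The average gave 2 with the stricter filter, 1 on Cy5 and 1 on Cy3 arrays and 0 with all Cy3 arrays turned. The other cell cycle genes gave 9 scaled, 1 with only the compared groups, 5 weighted, 31 with array set as a term, 4 on Cy3 arrays, 5 with Cy3 arrays turned, 31 with dye profiles removed and 13 within array set C. The cause was not tested.

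With all Cy3 arrays turned, as if ratios were Cy5 over Cy3, the sign changed for Cdk4 in KO against WT (0.34) and in WT (-0.11) at 24 h, and for the averages of Cdkn1a (0.21), Mcm3 (0.091), Mcm5 (0.10), Mcm6 (0.0084), Btg1 (0.035), Pold1 (0.16), Pole2 (0.11), Bub3 (0.038) and Smc2 (-0.26). It also changed for Gadd45a (0.13), Cdk5 (0.75) and Ttk (-0.91) in KO against WT at 0.5 h, Pold1 (0.10) and Gins2 (0.83) at 12 h, Btg2 in WT at 12 h (0.10), Gins2 in KO (-0.61), and Dnmt1 (0.46) and Tpx2 (-0.078) in WT from 12 to 24 h. Smc2 was -0.038 on Cy5 arrays. With the replicate block, KO against WT gave 4, HGF in WT 5, HGF in KO 0, the difference 0, 24 h against 12 h 0 and the other genes 16, and the average gave 4 with no replicate block. The block changed no call of a named member, and the highest correlation of a replicate was with one of its own number for 18 of 30. Without centring, all 46 results on single genes kept direction and call. The arrays and their missing values, 6.01% in all, limit what could be tested.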
